A study of Rattus norvegicus with 6 samples.

Results

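Spinal cord from rats with overt motor disease was compared with cord from healthy littermates on 5 of the 6 Illumina rat BeadChip arrays of a study of SOD1 G93A rats, a model of amyotrophic lateral sclerosis. The symptomatic group held 2 arrays, the mutant pool at disease onset and the mutant pool at end stage, and the wild-type group held 3 arrays, the wild-type pools killed at the presymptomatic, onset and end-stage times. All animals were female Sprague-Dawley rats, mutants carried the G93A mutation of SOD1, no animal is labelled as treated, and each array read a pool of 5 rats, so 10 mutant and 15 wild-type rats entered the comparison. The labels give an age of 10 weeks to every pool, whereas the design text gives it to presymptomatic rats only, and they place the tissue in the lumbar cord in one field and in the thoracic cord in another. The promoter that drives the mutant gene and the rat line are not given in the sources used here. The remaining array, the presymptomatic mutant pool, entered the normalization but not the comparison.

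Mutations of SOD1, the cytosolic copper and zinc superoxide dismutase, cause a familial form of amyotrophic lateral sclerosis in which motor neurons of the cord and brain stem degenerate. In rodents that carry such a mutation, microglia, the resident macrophages of the cord, take on a phagocytic state around dying motor neurons, and astrocytes become reactive. Microglia and astrocytes then express complement components, chemokines, matrix proteins and antigen presentation genes, while transcripts of motor neurons and of myelinating oligodendrocytes can decline. In RNA of whole cord, fewer cells of a type and less RNA per cell cannot be told apart, nor can more cells and more RNA per cell.

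The deposited probe IDs were out of order relative to the values, and the gene names given here depend on sorting those IDs as text. In the deposited order, probes for smell, taste, pheromone and trace-amine receptors were detected on every array in 37.8% of 1304 cases, and probes for subunits of the ribosome, the respiratory chain and the proteasome in 42% of 150 cases. After sorting, the receptor probes were detected in 1.38% of cases (exact 95% interval 0.820 to 2.17%) and the others in 90.7% (84.8 to 94.8%). Between 10122 and 10942 probes of 22226 were detected per array compared at a detection p below 0.01, and 12615 probes detected on any of the 5 arrays were kept, which stood for 8709 named genes by the brightest probe of each. Snap25 of synapses, Mbp of myelin and Slc18a3 of motor neurons were detected on all 5 arrays. Acta1 and Ckm of skeletal muscle were detected on all 5 as well, so detection alone does not identify the tissue. Values are normalized log2 levels. Summed intensities of a list, and single intensities beside them, are instead deposited values without that normalization, so they can also differ by array scale. Differences are mutant minus wild type on the log2 scale with the standard error (SE, 2 pools against 3). A gene was called at an adjusted p below 0.05 in limma with Benjamini-Hochberg adjustment.

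The symptomatic cord showed many more transcripts called higher than lower. Of the 8709 genes, 135 rose (1.55%) and 25 fell (0.287%). The risen genes had a median difference of 1.19, from 0.27 to 4.45, and 79 of them reached a 2-fold change. The fallen genes had a median difference of -0.52, from -0.98 to -0.39, and 0 of them reached a 2-fold change. Among probes, 156 of 12615 were called higher (1.24%) and 34 lower (0.27%), with a smallest limma adjusted p of 0.00779, and 29 of these 190 probes (1.51% of those tested) have no gene name here. The split of 156 higher and 34 lower probes became 244 and 156 when arrays were scaled by their 75th percentile and 22 and 0 in the authors' normalized table. Of the probes called in these 2 settings, 120 and 3 were among the 190. Both mutant pools lay above all 3 wild-type pools for 1540 genes (17.7%) and below them for 1639 genes (18.8%), which is the background for counts of non-overlapping genes below.

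The number of calls depended on single pools. Without the wild-type end-stage pool or without the mutant end-stage pool, limma called 0 probes, with 1701 and 1598 at an unadjusted p below 0.05. It called 35 probes without the wild-type onset pool, 26 of them among the 190 of the main fit, and 1 without the wild-type presymptomatic pool. Without the mutant onset pool the fit rested on 1 mutant array, and most probes called there were not among the 190. With stage as a block limma called 0 probes, with 1826 at an unadjusted p below 0.05. With a background correction whose noise was regressed from the intensities of undetected probes, which suits values that were already background-subtracted, 442 probes were called (3.78% of genes higher). Of the 190 probes called in the main fit 130 were among them, and the share differed by direction, with 114 of the 135 risen genes and 1 of the 25 fallen genes, Abcd2, also called there. Combined with it, in fits chosen after the data were seen, stage as a block gave 574 calls and leaving out 1 pool gave between 87 and 427. A two-sided exact rank test of a single gene in a design of 2 against 3, with 10 arrangements, cannot go below p = 0.2. The smaller limma p-values rest on its normal model, with 3 residual degrees of freedom per probe and 1.16 from the spread shared across probes. They describe the spread between pools of different stages rather than between animals.

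**Figure D1:**
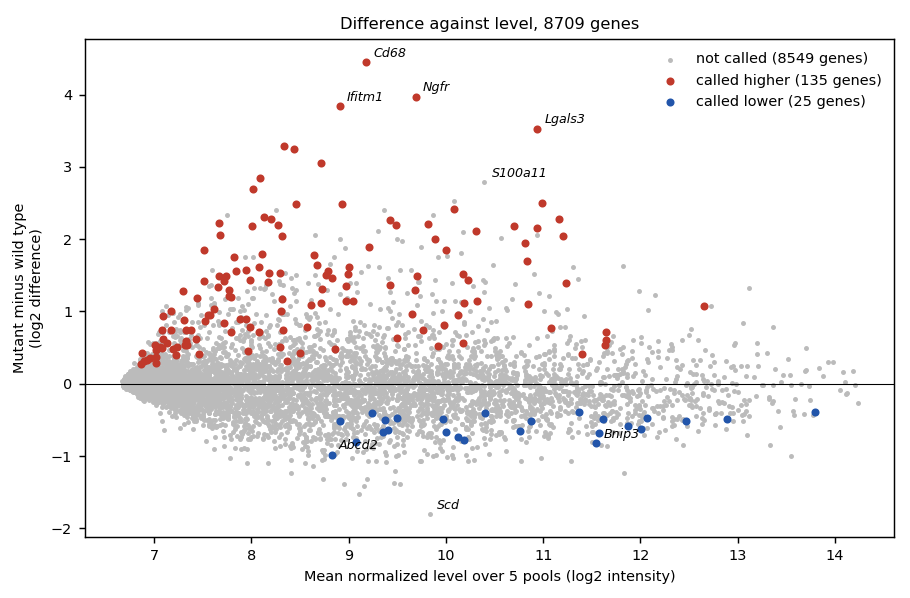
Each point is 1 of 8709 genes, with the mean log2 level over the 5 pools on the x axis and the log2 difference, mutant minus wild type, on the y axis. The 135 genes called higher (red) reach 4.45 at Cd68, whereas the 25 called lower (blue) stay between -0.98 and -0.39, and uncalled genes such as Scd and S100a11 (grey) have larger differences than many called ones.

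Cd68, which encodes a lysosomal membrane protein of macrophages and microglia, had the largest difference of the risen genes. Its level was 7.20, 7.54 and 7.46 in the presymptomatic, onset and end-stage wild-type pools and 11.82 and 11.87 in the onset and end-stage mutant pools. Both mutant pools lay far above all wild-type pools and within 0.05 of each other, a difference of 4.45 ± 0.12 (limma adjusted p = 0.00779), or 21.8-fold. Ngfr, the p75 neurotrophin receptor, stood at 7.86, 8.49 and 7.95 in the wild-type pools and at 11.76 and 12.38 in the mutant pools, which did not overlap and which were highest at end stage. Its difference was 3.97 ± 0.29 (adjusted p = 0.0255). Ifitm1, an interferon-induced membrane protein, had levels of 7.36, 7.55 and 7.21 against 10.91 and 11.52, again without overlap, and rose by 3.84 ± 0.22 (adjusted p = 0.0184). Lgals3, which encodes galectin-3, a sugar-binding protein of activated phagocytes, had levels of 9.35, 9.93 and 9.29 against 12.94 and 13.17. It rose by 3.53 ± 0.24 (adjusted p = 0.0236), and its wild-type onset pool was the highest of the 3 wild-type pools, as for Ngfr and Ifitm1.

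**Figure D2:**
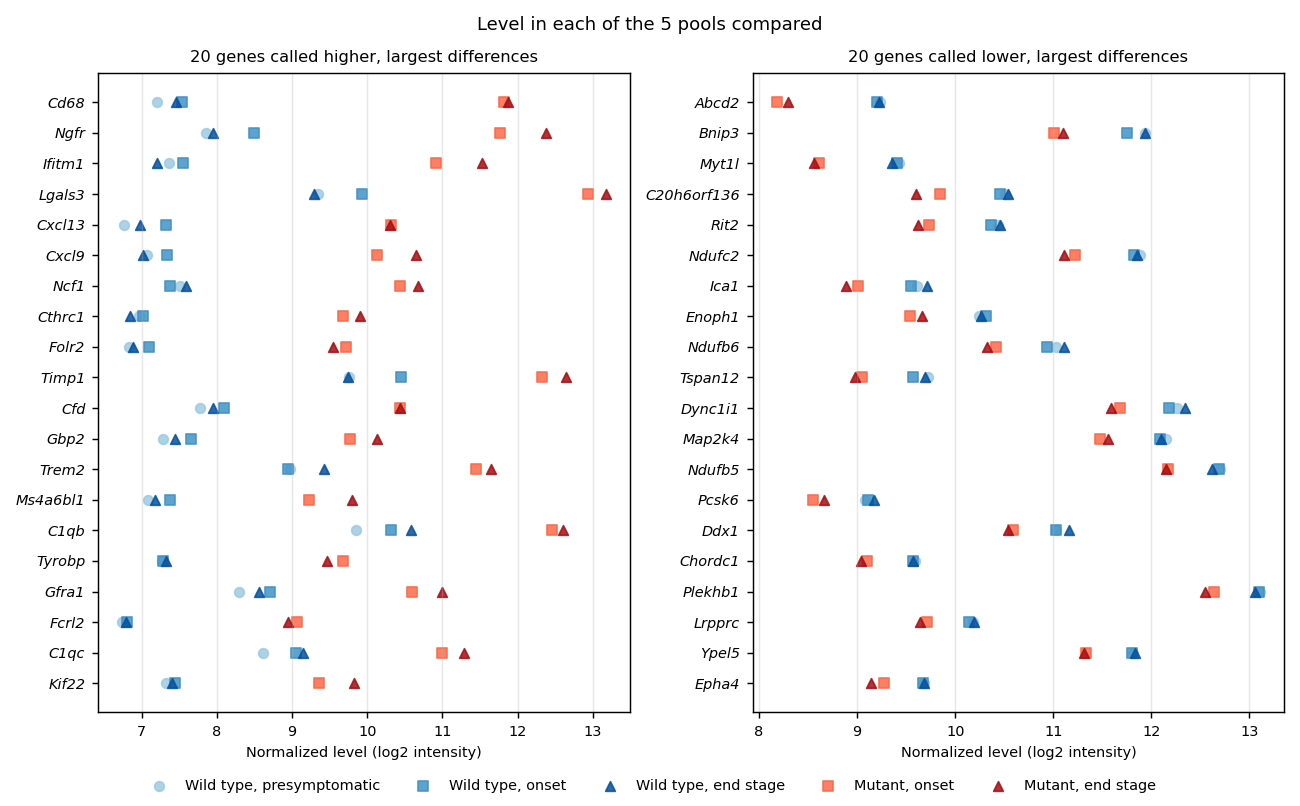
Log2 level of the 20 genes called higher with the largest differences (left) and the 20 called lower with the largest differences (right) in each of the 5 pools, with blue symbols for wild type, red symbols for mutant and a shape for each stage. The choice of these genes required that no mutant pool overlap a wild-type pool, a condition that 0 called genes failed. The difference is largest for Cd68 (4.45) on the left and for Abcd2 (-0.98) on the right. Uncalled genes, some with larger differences, are not shown.

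Receptors and signal adaptors of phagocytic microglia were prominent among the risen genes. In a list of 20 measured genes of disease-associated microglia, 6 rose and 0 fell, beside 1.55% of all genes that rose, and the median difference was 0.43 against -0.01 over all genes. Trem2, a receptor for lipids and cell debris, had levels of 8.97, 8.94 and 9.43 in wild type and 11.44 and 11.64 in mutants. Tyrobp, the adaptor through which Trem2 signals, had levels of 7.27, 7.29 and 7.32 against 9.68 and 9.47. Neither gene overlapped between the groups, and they rose by 2.42 ± 0.19 (adjusted p = 0.0267) and 2.28 ± 0.07 (adjusted p = 0.00779). Tyrobp was higher at onset than at end stage in the mutants, whereas Trem2 was higher at end stage. The remaining called members were Cd68, Lgals3, Ctsd and Cd63, and 16 of 20 members had both mutant pools above every wild-type pool.

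Several genes of engulfment and of the phagocyte oxidase rose with them. All 22 measured members of the list of phagocyte effectors had a difference above 0, with a median of 0.61, and 6 of them were called. Ncf1, a cytosolic subunit of the NADPH oxidase, had levels of 7.51, 7.38 and 7.59 in the wild-type pools and 10.43 and 10.67 in the mutant pools, and rose by 3.06 ± 0.10 (adjusted p = 0.00779). Cyba, the membrane subunit p22phox of the same enzyme, rose by 1.95 ± 0.14 (adjusted p = 0.0255). Laptm5, a lysosomal protein of blood-derived cells and microglia, rose by 1.89 ± 0.15, and Plek, the platelet and leukocyte protein pleckstrin, by 1.47 ± 0.15 (adjusted p = 0.0267 and 0.0439). Coro1a, an actin-binding protein of leukocytes, rose by 1.30 ± 0.09 (adjusted p = 0.0247), with levels of 9.21, 9.14 and 9.13 against 10.60 at onset and 10.33 at end stage.

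Markers of resting microglia differed from one another. Of 9 measured members, 3 rose, with a list median of 0.23, which was 0.43 in the onset pool, 0.06 in the end-stage pool and 0.75 with the regressed background. Aif1, the calcium-binding protein Iba1 of microglia and macrophages, had levels of 10.64, 10.83 and 10.57 in wild type and 12.15 and 11.97 in mutants, a rise of 1.39 ± 0.10 (adjusted p = 0.0263). Fcrl2, an Fc receptor-like gene, had levels of 6.74, 6.80 and 6.79 against 9.06 and 8.94 and rose by 2.23 ± 0.05 (adjusted p = 0.00779). Itgam, the integrin subunit CD11b, rose by 0.49 ± 0.05 (adjusted p = 0.0444). P2ry12, a receptor for nucleotides, and Tmem119, both defining markers of resting microglia, differed by 0.23 ± 0.14 and -0.02 ± 0.03 and were not called (adjusted p = 0.546 and 0.84). Cx3cr1, the receptor of fractalkine, differed by 0.08 ± 0.04 (adjusted p = 0.393), and Tmem119 and Cx3cr1 were dim probes at which differences are understated.

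Complement, a cascade of plasma and tissue proteins that tags debris and synapses for removal, had the highest median of the 47 lists, 1.52 over 15 measured members. All 15 had a difference above 0, 13 had both mutant pools above all wild-type pools, and 6 were called. C1qb had levels of 9.85, 10.32 and 10.58 in the wild-type pools and 12.46 and 12.60 in the mutant pools. The other chains of C1q, the recognition molecule of the classical pathway, followed the same pattern, with levels of 9.55, 9.89 and 10.05 against 12.03 and 11.99 for C1qa and of 8.62, 9.05 and 9.14 against 10.99 and 11.29 for C1qc. The 3 chains rose by 2.28 ± 0.24, 2.18 ± 0.17 and 2.21 ± 0.20 (adjusted p = 0.0444, 0.0263 and 0.0362), and in each the wild-type presymptomatic pool was the lowest. Cfd, the protease that starts the alternative pathway, had levels of 7.77, 8.10 and 7.95 against 10.43 and 10.44 and rose by 2.49 ± 0.11 (adjusted p = 0.0122).

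Several interferon-induced genes rose in the symptomatic cord as well. Of 21 measured members, 7 were called higher and 0 lower, with a median of 1.07, and 18 had both mutant pools above all wild-type pools. Cxcl9, a chemokine induced by interferon gamma that attracts T cells, had levels of 7.07, 7.34 and 7.02 against 10.13 and 10.65, without overlap, and rose by 3.25 ± 0.20 (adjusted p = 0.0211). Gbp2, a guanylate-binding protein, had levels of 7.29, 7.66 and 7.44 against 9.77 and 10.13 and rose by 2.49 ± 0.17 (adjusted p = 0.0236). Cxcl11, a second ligand of the receptor of Cxcl9, rose by 2.18 ± 0.12 (adjusted p = 0.0168), from 7.23, 7.22 and 6.92 to 9.24 and 9.38. In the mutants the end-stage pool was above the onset pool by 0.61 for Ifitm1, 0.52 for Cxcl9, 0.36 for Gbp2 and 0.14 for Cxcl11. Small gaps are what the test selects.

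The promoters of 3 called interferon-induced genes, those with the largest differences that have an entry in the promoter table, are shown because these genes rose together, and they were searched for the interferon-stimulated response element, GAAANNGAAA, on both strands. The windows run from 250 bases before to 50 after the start of the gene in RefSeq's GRCr8 assembly, all on the plus strand, with matches in capitals. Those of Gbp2 (chr2:234005477-234005776), Cxcl9 (chr14:16006916-16007215) and Cxcl11 (chr14:15973478-15973777) read as follows.
Gbp2: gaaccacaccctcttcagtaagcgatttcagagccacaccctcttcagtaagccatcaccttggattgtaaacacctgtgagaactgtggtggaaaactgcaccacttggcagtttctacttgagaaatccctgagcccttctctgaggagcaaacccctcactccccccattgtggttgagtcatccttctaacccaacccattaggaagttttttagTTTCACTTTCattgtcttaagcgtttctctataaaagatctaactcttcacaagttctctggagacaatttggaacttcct
Cxcl9: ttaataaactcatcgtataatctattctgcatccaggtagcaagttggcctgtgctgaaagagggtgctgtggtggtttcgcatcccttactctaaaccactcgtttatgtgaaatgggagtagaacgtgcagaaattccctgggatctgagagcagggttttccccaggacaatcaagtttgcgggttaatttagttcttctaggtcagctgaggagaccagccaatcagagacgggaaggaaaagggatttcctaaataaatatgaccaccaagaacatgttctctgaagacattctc
Cxcl11: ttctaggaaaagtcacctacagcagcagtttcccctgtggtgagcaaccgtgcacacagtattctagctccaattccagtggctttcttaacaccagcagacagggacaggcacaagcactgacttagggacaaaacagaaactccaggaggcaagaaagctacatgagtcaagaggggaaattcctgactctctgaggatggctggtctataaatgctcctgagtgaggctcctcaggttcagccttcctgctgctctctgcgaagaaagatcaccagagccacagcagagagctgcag
The window of Gbp2 held 1 match, on the minus strand and with its first base at -31, and those of Cxcl9 and Cxcl11 held 0. The motif occurred in 3.77% of 27457 promoters of this length, in 3.08% of 7234 promoters of measured genes and in 7.62% of 105 promoters of genes that rose. It occurred in 11 of 18 promoters of the measured interferon-induced genes (61.1%) and in 2 of the 6 called ones with a promoter in the table, Gbp2 and 1 that is not shown. A match describes the letters of the window and is neither a binding site nor a cause, and Ifitm1 had no entry.

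Antigen presentation genes rose at several steps of the pathway. All 20 measured members had a difference above 0, with a median of 0.51, 18 had non-overlapping groups, and 7 were called. Ifi30, a lysosomal thiol reductase that unfolds antigens, had levels of 7.50, 7.43 and 7.55 against 9.59 and 9.48 and rose by 2.05 ± 0.06 (adjusted p = 0.00779). RT1-DMb and RT1-DMa, the chains of the rat class II molecule that loads peptides, rose by 1.85 ± 0.14 and 1.31 ± 0.12 (adjusted p = 0.0253 and 0.0361). Psmb8, an interferon-induced subunit of the immunoproteasome, rose by 1.52 ± 0.17 (adjusted p = 0.0487). Cd74, the class II invariant chain, had levels of 7.88, 8.92 and 8.41 against 11.06 and 10.55, and its difference of 2.40 ± 0.37 was not called (adjusted p = 0.0818). Its wild-type pools spread over more than 1 log2 unit, which the groups' gap exceeded.

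Among secreted ligands, the called members were chemokines. Of 23 measured cytokine and chemokine genes, 4 rose and 0 fell, with a median of 0.22, or 0.08 in the onset pool alone, 0.13 without the wild-type end-stage pool and 0.12 without the wild-type presymptomatic pool. Cxcl13, a chemokine that attracts B cells, had levels of 6.76, 7.32 and 6.98 in wild type and 10.32 and 10.30 in mutants, and rose by 3.29 ± 0.18 (adjusted p = 0.0168). Ccl2, which attracts monocytes, had levels of 6.75, 6.84 and 6.73 against 7.64 and 7.90 and rose by 1.0 ± 0.09 (adjusted p = 0.0362). Its mutant pools were above the wild-type pools, of which 2 of 3 had the probe detected. Cxcl9 and Cxcl11 were the other 2 called ligands.

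Receptors and signal transducers of inflammation held 7 called members of 27, all higher, with a median of 0.32, or 0.18 in the onset pool alone. Ngfr was followed by Pycard, the adaptor ASC of the inflammasome, which had levels of 6.94, 7.25 and 7.25 against 8.59 and 8.68 and rose by 1.49 ± 0.12 (adjusted p = 0.0275). Tnfrsf1a, a receptor of tumour necrosis factor, rose by 1.41 ± 0.11 (adjusted p = 0.0267) and Ifngr1, a chain of the interferon gamma receptor, by 1.36 ± 0.06 (adjusted p = 0.0127). Casp1, the protease that the inflammasome activates, rose by 0.95 ± 0.11 (adjusted p = 0.0473), with 7.24, 7.17 and 7.09 against 7.97 and 8.26.

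Markers of blood-derived lymphocytes and granulocytes had no called member. Of 16 measured T and NK cell genes, 0 were called, and the list median was 0.04, or 0.30 with the regressed background. Both mutant pools lay above all wild-type pools in 6 members (37.5%, beside 17.7% of all genes) and below them in 1. The median level of the list was 6.73 in each wild-type pool, near background (median of undetected probes 6.69), where differences are understated. Cd8a, the alpha chain of the CD8 co-receptor, had levels of 6.73, 6.70 and 6.69 in wild type and 7.06 and 7.52 in mutants, and Cd8b had 6.70, 6.66 and 6.67 against 6.88 and 7.06. Neither pair of groups overlapped, and neither gene was called (adjusted p = 0.184 and 0.139). Cd8b was detected on 0 of 3 wild-type arrays and on both mutant arrays. With its wild-type levels raised to the lowest level of a detected probe, its group means differed 1.19-fold, an estimate without a test. Cd8a was detected on 1 of 3 wild-type arrays. With the regressed background Cd8b and Cd8a were called (adjusted p = 0.00406 and 0.00274), against wild-type values mostly at background. Cd3d, a subunit of the T cell receptor complex, differed by 0.04 ± 0.03 (adjusted p = 0.653). Of 9 neutrophil genes and 4 B cell genes 0 were called, with medians of 0.01 and -0.01. The neutrophil median changed sign when the wild-type end-stage pool was left out (-0.03), the wild-type onset pool (-0.03) or the mutant end-stage pool (-0.02), and the B cell median when arrays were scaled by their 75th percentile. Lcn2, which neutrophils and reactive astrocytes express, had levels of 7.98, 7.33 and 7.28 against 8.27 and 8.99, a difference of 1.10 ± 0.33 (adjusted p = 0.231).

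Several astrocyte genes that are known to rise in injury rose in the symptomatic cord. Of 23 measured genes of reactive astrocytes, 7 rose, 19 had non-overlapping higher groups, and the median was 1.05, with 0.72 in the onset pool and 1.28 in the end-stage pool. Timp1, an inhibitor of matrix metalloproteinases, had levels of 9.76, 10.45 and 9.75 against 12.32 and 12.65 and rose by 2.50 ± 0.28 (adjusted p = 0.0473). Mt1, a metallothionein, had levels of 10.49, 10.34 and 10.30 against 12.14 and 12.72 and rose by 2.05 ± 0.20 (adjusted p = 0.037). Emp1, an epithelial membrane protein, rose by 1.42 ± 0.12 (adjusted p = 0.0277), and Gbp2 is also a member.

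Of 15 general astrocyte markers, 0 were called and the median was -0.37, with -0.12 in the onset pool and -0.53 in the end-stage pool. The difference between this list and that of reactive astrocytes was not tested. Slc7a10, an amino acid transporter of astrocytes, had levels of 9.41, 8.97 and 9.39 in wild type and 8.15 and 7.73 in mutants, a difference of -1.32 ± 0.21 that was not called (adjusted p = 0.0848). Gjb6, the gap junction protein connexin 30, differed by -0.71 ± 0.11 (adjusted p = 0.0799). Slc1a3, the glutamate transporter GLAST, and the water channel gene Aqp4 differed by 0.11 ± 0.16 and 0.03 ± 0.20 (adjusted p = 0.836 and 0.967).

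Several matrix genes rose. Of 34 measured members, 6 were called, 25 had both mutant pools above all wild-type pools, and the median was 0.83, or 0.53 without the wild-type end-stage pool. Cthrc1, a secreted collagen triple-helix protein, had levels of 6.97, 7.02 and 6.85 against 9.68 and 9.91 and rose by 2.85 ± 0.09 (adjusted p = 0.00779). Postn, the matricellular protein periostin, had levels of 6.91, 6.84 and 6.80 against 8.62 and 9.20, and Thbs2, a thrombospondin, had 6.77, 6.84 and 6.72 against 8.69 and 8.55. They rose by 2.06 ± 0.19 (adjusted p = 0.0361) and 1.85 ± 0.06 (adjusted p = 0.00779), the former more at end stage and the latter more at onset. Markers of meningeal fibroblasts moved with this group, with 1 of 18 called (Fmod, the collagen-binding fibromodulin, 1.19 ± 0.11, adjusted p = 0.0374), 11 of 18 non-overlapping and a median of 0.49 (0.29 in the onset pool alone and 0.32 without the wild-type end-stage pool). Their summed intensity was 40135 to 50814 in wild type and 56715 and 63785 in mutants, the defining marker Dcn was high on all arrays with a difference of 0.54 ± 0.38, and the part of these cells in the result was not tested.

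Gadd45a and Jun rose among the transcription factors and stress genes of the early response. Of 22 measured members, these 2 were called, 9 with the regressed background, 16 had non-overlapping higher groups, and the median was 0.74. Gadd45a, a stress gene that p53 induces, had levels of 8.67, 8.70 and 8.47 against 10.70 and 10.90 and rose by 2.19 ± 0.11 (adjusted p = 0.015). Jun, a subunit of the AP-1 factor, had levels of 7.33, 7.36 and 7.59 against 8.90 and 9.20 and rose by 1.62 ± 0.13 (adjusted p = 0.0277). Atf3, a factor induced in injured neurons, had levels of 6.74, 6.89 and 6.80 against 8.73 and 9.58. Its difference of 2.34 ± 0.28 missed the threshold (adjusted p = 0.053), with a gap of 0.85 between the mutant pools.

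Of 22 genes known to rise in injured neurons, 3 were called, namely Gfra1, Gadd45a and Jun, and the list median was 0.02, a value that reached 0 under some alternatives. Gfra1, the co-receptor of the neurotrophic factor GDNF, had levels of 8.30, 8.71 and 8.56 against 10.60 and 10.99 and rose by 2.27 ± 0.18 (adjusted p = 0.0277). Schwann cell markers had 1 called member of 7, Ngfr, and a median of 0.18 (0.09 without the wild-type end-stage and 0.51 without the wild-type onset pool). Their summed intensity was 18474 to 25288 in wild type and 27463 and 26772 in mutants. That sum includes Ngfr itself, at 277 to 444 in wild type and 3334 and 5322 in mutants, so it is not separate from the rise of Ngfr. The defining Schwann cell gene Pmp22 differed by 0.18 ± 0.10 (adjusted p = 0.51), and the part of nerve root tissue in the rise of Ngfr was not tested.

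Of 33 proliferation genes, 3 rose, with a median of 0.12, or 0.06 in the onset pool alone and 0.58 with the regressed background. Non-overlapping higher groups were seen in 22 members (66.7%, beside 17.7% of all genes) and non-overlapping lower groups in 2. The median level of the list was 6.86, 6.78 and 6.77 in the wild-type pools, near background, where differences are understated. Ccnd1, the G1 cyclin D1, had levels of 9.43, 9.62 and 9.33 against 11.35 and 11.79 and rose by 2.11 ± 0.17 (adjusted p = 0.0277). Kif22, a chromosome-binding kinesin, had levels of 7.32, 7.44 and 7.40 against 9.36 and 9.82 and rose by 2.20 ± 0.15 (adjusted p = 0.0247). Mcm6, a subunit of the replicative helicase, rose by 0.72 ± 0.06 (adjusted p = 0.0277). Of 23 cell death genes, 3 rose, Gadd45a, Tnfrsf1a and Casp1, and the median was 0.07, or 0.47 with the regressed background. In 12 members the groups did not overlap and mutants were higher, and in 1 they were lower. This list was also near background, with median levels of 6.82, 6.83 and 6.80 in wild type.

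Some lysosomal genes rose. Of 41 measured lysosome and autophagy genes, 6 rose and 0 fell, 22 had non-overlapping higher groups and 4 non-overlapping lower groups, and the median was 0.42. Ctsd, the aspartyl protease cathepsin D, had levels of 9.84, 10.28 and 10.10 against 12.21 and 12.24 and rose by 2.15 ± 0.14 (adjusted p = 0.0236). Cd63, a tetraspanin of late endosomes, had levels of 8.81, 9.23 and 9.28 against 10.63 and 10.57 and rose by 1.49 ± 0.17 (adjusted p = 0.0473). Grn, which encodes the lysosomal protein progranulin, had levels of 9.07, 9.57 and 9.64 against 11.12 and 11.35. Its difference of 1.81 ± 0.21 was not called (adjusted p = 0.053), although the groups did not overlap.

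Genes of lipid efflux and storage had 0 called members of 17, a median of 0.39 (0.66 in the end-stage pool) and 11 members with non-overlapping higher groups. Plin2, which coats lipid droplets, had levels of 8.68, 8.58 and 8.75 against 9.98 and 10.58 (difference 1.61 ± 0.20, adjusted p = 0.0602). Apoc1, an apolipoprotein, had levels of 7.31, 7.09 and 7.48 against 9.11 and 10.30 (2.41 ± 0.40, adjusted p = 0.0926), with the end-stage pool well above the onset pool. Pltp, the phospholipid transfer protein, differed by 1.45 ± 0.19 (adjusted p = 0.0649). With the regressed background 5 members were called higher, among them Plin2, Apoc1 and Pltp (adjusted p = 0.0098, 0.00605 and 0.0109).

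Cholesterol synthesis genes had differences below 0 in nearly every member, and in the main fit none passed the test. Of 21 measured genes, 0 were called, 19 had both mutant pools below all wild-type pools, beside 18.8% of all genes, and 20 had a difference below 0, with a median of -0.73. The median was -0.64 in the onset pool and -0.81 in the end-stage pool. Fdps, the farnesyl diphosphate synthase, had levels of 11.04, 10.81 and 10.63 in wild type and 9.87 and 9.83 in mutants, a difference of -0.97 ± 0.13 (adjusted p = 0.0724). Insig2, a sterol sensor of the endoplasmic reticulum, had levels of 10.04, 10.01 and 10.16 against 9.72 and 9.74 (-0.34 ± 0.06, adjusted p = 0.0964). Srebf1, a regulator of lipid synthesis genes, lay on the other side, with 9.06, 9.11 and 8.93 against 9.77 and 9.51 (0.61 ± 0.10, adjusted p = 0.0983). The wild-type pools themselves differed, the summed intensity of the list being 25675 in the presymptomatic, 19735 in the onset and 17828 in the end-stage wild-type pool, against 12867 and 11187 in the mutant pools. With alternatives, 10 of the 21 were called lower under scaling by the 75th percentile, 7 under a trended robust prior and 3 under the regressed background, Fdps among the last (adjusted p = 0.0463). Without the wild-type presymptomatic pool the median was -0.50. The sterol regulatory element TCACNCCAC, on either strand, occurred in 0 of 17 promoters of these genes and in 1.13% of all promoters. For a motif this rare, 17 promoters are too few to tell the list from other genes, and only exact matches to these letters were counted.

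Fatty acid synthesis genes had 1 called member of 17 and a median of -0.50, with -0.20 in the onset pool and -0.59 in the end-stage pool. Scd2, a stearoyl-CoA desaturase of brain, had levels of 13.98, 13.96 and 13.91 against 13.59 and 13.54 and fell by 0.39 ± 0.04 (adjusted p = 0.0377). Scd, a related desaturase, had levels of 11.31, 9.91 and 10.45 against 8.62 and 8.89. Its difference of -1.80 ± 0.46 was not called (adjusted p = 0.177), its wild-type pools being spread over more than the gap to the mutants. Acly, which makes acetyl-CoA from citrate, differed by -0.51 ± 0.15 (adjusted p = 0.214).

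**Figure D3:**
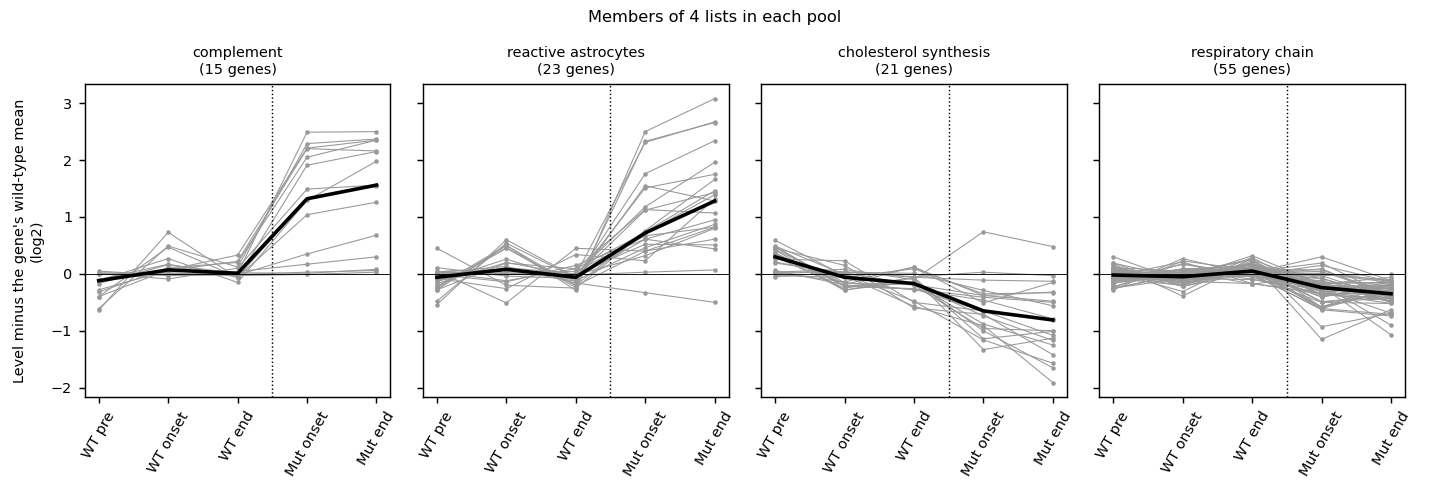
Each grey line is a gene, drawn as its log2 level minus its wild-type mean in the presymptomatic, onset and end-stage wild-type pools and the onset and end-stage mutant pools, and the black line is the list median. In the mutant pools the medians of complement (15 genes) and reactive astrocyte genes (23) lie above 0 and those of cholesterol synthesis (21) and respiratory chain genes (55) below, with 35 of the 55 respiratory chain genes non-overlapping and Srebf1 above in the cholesterol list, whose wild-type pools also differ.

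Subunits of the mitochondrial respiratory chain were lower by small amounts. Of 55 measured members, 3 fell and 0 rose, beside 0.287% of all genes that fell, 53 had a difference below 0, 35 had non-overlapping lower groups, and the median was -0.29. The called members were all subunits of complex I, the NADH dehydrogenase. Ndufc2 had levels of 11.88, 11.82 and 11.85 in wild type and 11.22 and 11.11 in mutants, and fell by 0.68 ± 0.05 (adjusted p = 0.024). Ndufb6 had levels of 11.03, 10.94 and 11.11 against 10.42 and 10.32, and Ndufb5 had 12.70, 12.69 and 12.62 against 12.17 and 12.15. They fell by 0.65 ± 0.07 and 0.52 ± 0.04 (adjusted p = 0.0417 and 0.0263). With the regressed background 0 members of the list were called.

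Other routes of energy metabolism had no called member. Of 17 citric acid cycle genes, 11 had non-overlapping lower groups and the median was -0.37 (-0.60 in the end-stage pool). Of 17 glycolysis genes 10 had non-overlapping lower groups and the median was -0.34 (-0.17 in the onset pool). Pdhb, a subunit of pyruvate dehydrogenase, had levels of 11.55, 11.59 and 11.41 against 10.94 and 10.84 (-0.63 ± 0.07, adjusted p = 0.053). Pfkp, a phosphofructokinase, had levels of 11.78, 11.79 and 11.92 against 11.37 and 11.27 (-0.51 ± 0.07, adjusted p = 0.062).

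The fallen genes came from many functions. Abcd2, a peroxisomal transporter of very long chain fatty acids, had levels of 9.23, 9.20 and 9.22 in wild type and 8.18 and 8.29 in mutants, the largest difference of the fallen genes (-0.98 ± 0.04, adjusted p = 0.0122). Bnip3, a mitochondrial protein of mitophagy, had levels of 11.93, 11.75 and 11.94 against 11.01 and 11.10 and fell by 0.82 ± 0.08 (adjusted p = 0.0369). Myt1l, a zinc finger factor of neurons, had levels of 9.43, 9.41 and 9.36 against 8.61 and 8.56 and fell by 0.81 ± 0.04 (adjusted p = 0.0142). In these genes the wild-type pools lay within 0.19 of one another.

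Further fallen genes included a GTPase, a motor subunit and a receptor. Rit2, a small GTPase of neurons, had levels of 10.44, 10.36 and 10.46 against 9.73 and 9.62 and fell by 0.74 ± 0.06 (adjusted p = 0.0263). Dync1i1, an intermediate chain of the cytoplasmic dynein motor of axonal transport, had levels of 12.26, 12.18 and 12.34 against 11.68 and 11.59 and fell by 0.63 ± 0.06 (adjusted p = 0.0384). Epha4, an ephrin receptor, had levels of 9.68, 9.67 and 9.68 against 9.27 and 9.14 and fell by 0.47 ± 0.05 (adjusted p = 0.0434). Map2k4, a kinase of the JNK pathway, and Lrpprc, which stabilizes mitochondrial mRNAs, fell by 0.59 ± 0.04 and 0.49 ± 0.04 (adjusted p = 0.0247 and 0.0263). In the list of cytoskeleton and transport genes, Dync1i1 was the only one of 32 that fell, and Tubb6, a beta tubulin, was the only one that rose (1.53 ± 0.09, adjusted p = 0.0211).

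Markers of neurons were lower in most cases and were not called. Of 33 measured neuronal and synaptic genes 0 were called, 29 had a difference below 0, and 13 had non-overlapping lower groups, with a median of -0.46. The list median was -0.02 in the onset pool and -0.59 in the end-stage pool. Stmn2, a microtubule regulator of axons, had levels of 12.11, 11.74 and 12.16 against 11.08 and 11.21 (-0.86 ± 0.15, adjusted p = 0.103). Syp, the synaptic vesicle protein synaptophysin, had levels of 11.82, 11.92 and 11.97 against 11.56 and 11.31 (-0.47 ± 0.09, adjusted p = 0.125). All 17 measured genes of inhibitory neurons had a difference below 0, with a median of -0.46, 10 had non-overlapping lower groups, and 0 were called. Pnoc, the precursor of nociceptin, had levels of 9.68, 9.76 and 9.67 against 9.17 and 9.29 (-0.47 ± 0.05, adjusted p = 0.052).

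Most motor neuron genes were lower, though none was called lower in the main fit. Of 20 measured members, 15 had a difference below 0 and 5 above. Non-overlapping lower groups were seen in 12 members and non-overlapping higher groups in 3. The 1 called member, Ngfr, rose, and Schwann cells and other glia express it as well. Nefm and Nefl, subunits of the neurofilaments that fill large axons, had levels of 11.53, 11.21 and 11.43 against 10.28 and 10.45, and of 13.93, 13.79 and 14.13 against 12.88 and 13.02. They differed by -1.03 ± 0.12 and -1.0 ± 0.12 and missed the threshold (adjusted p = 0.0528 and 0.0579), and with the regressed background both were called (adjusted p = 0.0319 for each). Slc18a3, the vesicular acetylcholine transporter, differed by -1.38 ± 0.34 (adjusted p = 0.173). The list median of -0.05 became 0.03 when arrays were scaled by their 75th percentile. With the regressed background it was -0.42, and 3 members were called lower. Tissue from outside the cord differed between pools too, since the summed intensity of 16 skeletal muscle genes was 5375 to 10578 in wild type and 7315 and 2832 in mutants, with Acta1 and Ckm detected on all 5 arrays, and its part in these results was not tested.

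Myelin genes were lower without passing the test in all but 1 case. Of 22 measured oligodendrocyte genes, 21 had a difference below 0, 9 had non-overlapping lower groups, and the median was -0.46, with -0.27 in the onset pool and -0.61 in the end-stage pool. Plekhb1, a membrane protein of oligodendrocytes and photoreceptors, had levels of 13.11, 13.10 and 13.06 against 12.64 and 12.55 and fell by 0.49 ± 0.04 (adjusted p = 0.0277). Bcas1, a marker of myelinating oligodendrocytes, had levels of 12.82, 11.84 and 12.29 against 11.23 and 10.95 (-1.23 ± 0.33, adjusted p = 0.19). Mbp, the myelin basic protein, differed by -1.0 ± 1.05 (adjusted p = 0.768), its end-stage mutant pool being 2.66 below its onset mutant pool. Of 9 genes of oligodendrocyte precursors 0 were called.

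**Figure D4:**
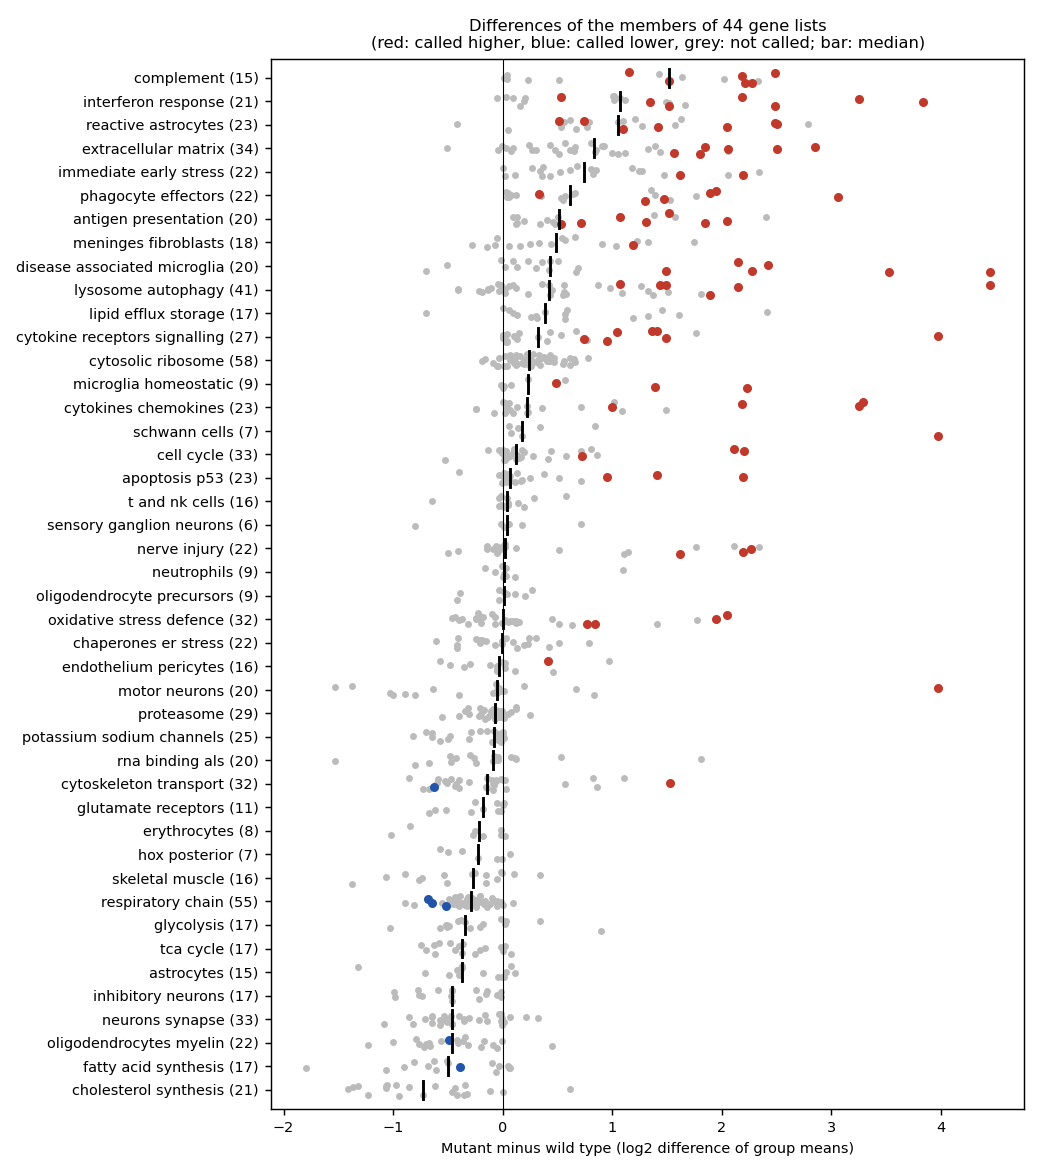
Each point is a measured gene of a list (number of genes in parentheses), placed by its log2 difference, mutant minus wild type, and each bar is the list median. Complement (1.52), interferon response (1.07) and reactive astrocytes (1.05) have the highest medians with many called members (red), whereas cholesterol synthesis (-0.73) has the lowest with 0 called, and called lower members (blue) appear in the respiratory chain, myelin, fatty acid and cytoskeleton lists.

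Genes of protein synthesis and turnover moved little. Of 58 cytosolic ribosomal protein genes 0 were called, 52 had a difference above 0, 29 had non-overlapping higher groups, and the median was 0.24. Rpl10a had levels of 11.56, 11.82 and 11.68 against 12.29 and 12.30 (0.61 ± 0.09, adjusted p = 0.074). Of 29 proteasome subunits and 22 chaperone and unfolded protein response genes 0 were called, with medians of -0.07 and -0.01, the latter of which changed sign under some alternatives. Among 32 genes of oxidative stress defence, 4 rose, Mt1, Cyba, Hmox1 and Gpx1, and the median was 0.00. Hmox1, the heme oxygenase, had levels of 7.32, 7.30 and 7.51 against 8.30 and 8.15 (0.84 ± 0.09, adjusted p = 0.0459), and Gpx1, a glutathione peroxidase, had 10.82, 10.76 and 10.75 against 11.53 and 11.56 (0.77 ± 0.04, adjusted p = 0.0151).

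Sod1, the rat gene named by the probe annotation, had levels of 12.78, 12.89 and 13.05 in wild type and 12.89 and 12.79 in mutants, a difference of -0.07 ± 0.10 (adjusted p = 0.833), and the groups overlapped. No source used here says whether this probe also reads the mutant gene, so it does not check the labels. Of 20 measured genes with human mutations in amyotrophic lateral sclerosis, 0 were called.

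Among the called genes, the gap between the end-stage and onset mutant pools had a median of 0.11 and a maximum of 0.61, small gaps being what the test selects, and 88 of the 135 risen genes were higher at end stage. The widest gaps with end stage above onset were those of Ngfr and Ifitm1, 0.61 each. On the other side, Emp1 was lower at end stage by 0.27, Coro1a by 0.26 and Mdk, a heparin-binding growth factor, by 0.23, with levels of 9.67, 9.90 and 9.65 in wild type against 10.98 at onset and 10.75 at end stage. Over 8100 genes detected in either mutant pool, 131 differed by at least 2-fold between these pools, 38 higher and 93 lower at end stage, beside 47 to 61 genes for the pairs of wild-type pools. In the authors' normalized table the direction turned, with 936 higher and 451 lower at end stage, and the total of 1387 stood beside 936 to 1208 for the wild-type pairs. The median intensity in that table was 13.51 in the end-stage and 4.41 in the onset mutant pool. The part of this difference in scale in the turn was not tested. There is 1 array per stage, so these gaps have no replicate check. A 2-fold rise of the group mean was reached by 207 genes (2.38%), of which 128 were not called, and a 2-fold decline by 33 (0.379%), of which 33 were not called. The uncalled genes were led by S100a11, a calcium-binding protein with levels of 9.06, 9.78 and 8.99 against 11.78 and 12.36 (2.79 ± 0.33, adjusted p = 0.0553). Gas7, a growth arrest gene, followed with 8.76, 9.74 and 8.70 against 11.48 and 11.72 (2.53 ± 0.38, adjusted p = 0.0795).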

How the data were processed

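Female rat cord RNA, pooled from 5 animals and labelled from 750 ng, was read on 1 array per genotype and stage, per the labels' protocols. The authors deposited, for each array, a linear intensity per probe with its detection p-value, made with BeadStudio 3.2.6 per the submitters' processing notes, and the deposited intensity was already background-subtracted (values below 0 occur). A second deposited table of normalized intensity, its method not given in the sources used here, served as an alternative. Of 22226 probes, 13192 have 1 gene symbol in the platform annotation, 0 have several and 9034 are unnamed here. RefSeq's GRCr8 table held 13151 of the named probes and changed 0 symbols.

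Intensities of all 6 arrays were normalized by neqc in limma 3.58.1 under R 4.3.3 (with an offset of 16, quantile, log2), with the probe IDs sorted as text. The noise that neqc inferred was large (lowest log2 level 6.62), so differences of dim probes are understated. Probes detected at p below 0.01 on any of the 5 arrays compared were fitted with lmFit and eBayes, 2 mutant against 3 wild-type pools, two-sided, with Benjamini-Hochberg adjustment over 12615 probes and a threshold of 0.05. The fit was tested on simulated data. Named genes were the 20 largest called differences in each direction, given that both mutant pools lay outside the range of the wild-type pools. Added were up to 4 called members of each of 47 lists (where under 2 were called, the 3 smallest p). The 5 widest gaps between mutant pools in each direction, the 5 largest uncalled differences and Sod1 completed the rule. Defining cell type markers were also named, and not every gene the rule names is described. Comparison, lists and rule were chosen with earlier results of these data known. Alternatives changed the background correction, offset, scaling, table, filter, variance prior, array weights, stage block, probe choice and ID order, and left out each pool.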

Additional observations from a re-analysis of the deposited data

Results flagged for a closer look

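Scn10a and Scn11a, sodium channel genes of sensory neurons, lay on opposite sides of the wild-type pools in the 2 mutant pools, but neither probe was detected at onset. Scn10a had log2 levels of 6.75, 7.12 and 6.75 in the wild-type pools, 6.71 in the mutant onset pool and 8.46 in the mutant end-stage pool, a gap of 1.75. Scn11a had 6.70, 6.79 and 6.70 in wild type against 6.68 and 7.14, a gap of 0.46. The onset levels are those of background (median of undetected probes 6.69), so no decline at onset is shown and the gaps are differences against background. With 1 array per stage the difference between the stages was not tested.

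The presymptomatic mutant pool, which was left out of the comparison, lay at least 0.5 above the highest wild-type pool in 5 of the called genes, a limit chosen after the data were seen. The excess on the log2 scale was 0.69 for Mk1, 0.68 for Pyroxd2, 0.55 for Tlnrd1, 0.54 for C20h6orf136 and 0.50 for Scrn1. C20h6orf136 was called lower in the symptomatic pools (-0.78 ± 0.08), so its excess lay opposite to that call. Only levels above wild type were searched for. Called genes could also lie below every wild-type pool, as Coro1a did (8.58 against 9.21, 9.14 and 9.13). The excess rests on 1 array and has no replicate check.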

How the results depend on the processing

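The counts of calls depended on the processing. For probes, against 190 in the main setting, the count was 442 with regressed noise, 0 without background correction (smallest adjusted p 0.0529, 1803 probes at an unadjusted p below 0.05), 400 with the 75th-percentile shift (244 higher, 156 lower, against 156 and 34), 22 with the authors' normalized table, 636 with a trended robust prior, and 0 with stage as a block (smallest adjusted p 0.241). Leaving out 1 pool gave 0 to 208, and with regressed noise 87 to 427, and regressed noise with the stage block gave 574, both combinations having been chosen after the data were seen. It stayed within 1.5 times the main count with neqc on 5 arrays, an offset of 50, probes detected on all 5 arrays, no filter and array weights. The number of list members called, 71 in the main setting, was 137, 0, 131, 5, 175 and 0 in the settings first named, in that order, 0 to 66 without 1 pool, 45 to 128 without 1 pool under regressed noise, 170 under regressed noise with the stage block, and 7 with the IDs as deposited. Genes that differed at least 2-fold between the mutant pools numbered 131 in the main setting, 429 with regressed noise, 1448 without background correction and 1387 with the authors' table, where pairs of wild-type pools gave 155 to 284, 853 to 1181 and 936 to 1208. The medians of complement, interferon, phagocyte, reactive astrocyte, matrix, lysosome, cholesterol, respiratory chain, myelin and inhibitory neuron lists kept their sign over the 23 alternatives that use sorted IDs. Medians near 0, such as those of the motor neuron list (-0.94 to 0.03) and the neutrophil list (-0.16 to 0.61), did not. Dim uncalled genes changed sign: Cd79b 0.03, Pax5 0.09, Spag6 0.07 and Tmem212 0.04 with the 75th-percentile shift; Pax5 0.07, Scn10a -0.46 and Tmem212 0.04 with the authors' table; and, without 1 pool, Pax5 -0.03 to 0.01, Tmem212 -0.10 to 0.03, Prtn3 -0.02 to 0.07, Scn10a -0.16 to 1.59, Scn11a -0.05 to 0.41 and Cxcr2 -0.01 to 0.06. Without 1 pool under regressed noise Tmem212 was at 0.02 without the mutant onset pool, and the genes ran from -0.31 to 0.07, -0.46 to 0.26, -0.15 to 0.61, -1.06 to 3.08, -0.41 to 2.17 and -0.06 to 0.53, in that order. With the IDs as deposited, 90 of 161 named genes had a kept probe and 51 kept their sign. There the difference was below 0 for Ngfr (-0.71), Ifitm1 (-0.02), Cxcl13 (-0.43), Cxcl9 (-0.21), Trem2 (-0.13), Ms4a6bl1 (-0.14), C1qb (-0.41), Itgam (-0.16), Pycard (-0.01), Ifngr1 (-0.35), Emp1 (-0.25), Tie1 (-0.11), Fmod (-0.59), Dynlrb2 (-0.86), Gadd45a (-0.02), Ctsd (-0.02), Rps12 (-0.36), Hspa2 (-0.09), Mdk (-0.15) and S100a11 (-0.19). It was above 0 for Bnip3 (0.52), Tspan12 (0.07), Ndufb5 (0.14), Lrpprc (0.11), Epha4 (0.51), Cd79b (0.04), Slc7a10 (0.36), Nefm (0.04), Syp (0.03), Calb1 (0.01), Gria3 (0.98), Kcnc2 (0.08), Kcnd2 (0.01), Cacna2d1 (0.01), Spag6 (0.07), Insig2 (0.08), Idh3g (0.11) and Sod1 (0.01). The deposited pairing assigns other genes' values to these names. For the remaining changes the cause was not tested. The stage block pairs each mutant pool with the wild-type pool of its stage and leaves 1 residual degree of freedom, and the labels carry no replicate numbers for another pairing. Precision is limited by the small number of arrays, and differences of probes near background are understated.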
